A study of Mus musculus with 12 samples.

Results

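The 35 genes described here act in the passage of a cell through G2 and mitosis: cyclins and the kinase Cdk1, mitotic kinases, the spindle checkpoint, kinetochore proteins, spindle motors, cytokinesis factors and the chromosome proteins Ki-67 and topoisomerase II alpha. They were chosen by symbol, each matched to 1 of 28977 gene IDs, and all 35 were among the 12026 genes kept for testing, with at least 1 FPKM (fragments per kilobase of exon and per unit of sequencing depth) in at least 3 libraries. Levels were measured by mRNA sequencing in J774A.1, a mouse macrophage-like tumour line that divides in culture. HBSS, a buffered salt solution, served as the vehicle (0 µM) for hypochlorous acid (HOCl), an oxidant produced by the myeloperoxidase of phagocytes. The 4 groups of 3 libraries each were HOCl at 100 µM in HBSS, HOCl at 20 µM in HBSS, HBSS alone and cell media alone, each applied to this same line for 1 h and followed by 24 h in full medium. The series states that its HOCl concentrations span sublethal and lethal ones, without naming which is which. The labels do not say whether the 3 libraries of a group came from separate cultures, so the p-values measure the spread between these samples, which may be technical.

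Entry into mitosis is driven by Cdk1 bound to B-type cyclins, which accumulate in G2 and are destroyed when the anaphase-promoting complex is switched on. The spindle checkpoint holds that complex back until every kinetochore is attached to microtubules, and the chromosomal passenger complex corrects faulty attachments and later directs cytokinesis. Transcripts of these genes are low in G1 and peak in G2 and mitosis, through repression by the DREAM complex and activation by B-Myb and FoxM1, which act through the cell cycle homology region (CHR) and CCAAT boxes of their promoters. In bulk RNA, fewer cells in G2 or mitosis and less RNA per such cell cannot be told apart.

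The libraries held 17684385 to 21408919 counted reads, recovered from the steps in the FPKM values. Of 14 macrophage markers, 12 were kept, led by Lyz2 at 2019.6 to 2892 FPKM and Cd68 at 771 to 918, while Mrc1 stayed between 0.311 and 1.13 FPKM and Cd163 did not exceed 0.017. Of 20 markers of other cell types, 17 had a row and 16 of these did not reach 1 FPKM in any library; the exception was S100a8, at 9.71 to 19.1 FPKM. Replicates 1 and 2 of cell media were unlike the remaining 10 libraries: their FPKM summed to 389124 and 387481, against 307153 to 336382 in the others. They widened the shared estimate of spread, with a median standard error over the 35 genes of 0.14 on the log2 scale with all 12 libraries and 0.053 without these 2, for HOCl 100 µM minus HBSS. Counts of members called are therefore given with all 12 libraries and with these 10. Single-gene p-values are from all 12 unless 10 libraries are named.

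Promoter sequences show what these genes share beyond their function. RefSeq promoter windows (GRCm38.p6, 250 bases before to 50 after the annotated start) were matched by symbol for 28 of the 35 genes, all but Ccna2, Aurkb, Cdc25c, Kif20a, Incenp, Tpx2 and Foxm1. Both strands were searched for 2 spellings of the CHR core, TTTGAA and TTCGAA, and for the CCAAT box that the factor NF-Y binds; matches of different motifs were counted separately and may share end letters, and TTCGAA, its own reverse complement, was counted once. The 4 windows printed are those of the 2 members with the largest positive difference between HOCl 100 µM and HBSS, Cdk1 (ENSMUSG00000019942) and Cdc20 (ENSMUSG00000006398), and of the 2 with the most negative, Mki67 (ENSMUSG00000031004) and Cenpf (ENSMUSG00000026605), so that both ends of the list can be read side by side. Capitals mark TTTGAA and CCAAT or their reverse complements.
Cdk1, chr10:69352863-69353162, minus strand: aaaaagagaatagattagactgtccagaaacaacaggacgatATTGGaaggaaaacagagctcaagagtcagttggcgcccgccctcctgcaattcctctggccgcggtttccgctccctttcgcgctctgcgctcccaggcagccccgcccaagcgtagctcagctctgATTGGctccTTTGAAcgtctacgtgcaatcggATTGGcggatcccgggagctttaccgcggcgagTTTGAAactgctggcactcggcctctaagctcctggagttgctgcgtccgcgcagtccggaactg
Cdc20, chr4:118437294-118437593, minus strand: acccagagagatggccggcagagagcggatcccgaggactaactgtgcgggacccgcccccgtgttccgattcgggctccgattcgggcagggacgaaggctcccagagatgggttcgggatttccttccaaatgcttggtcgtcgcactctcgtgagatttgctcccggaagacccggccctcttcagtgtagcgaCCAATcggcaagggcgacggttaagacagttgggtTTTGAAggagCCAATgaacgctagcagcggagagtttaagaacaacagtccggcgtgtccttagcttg
Mki67, chr7:135716330-135716629, minus strand: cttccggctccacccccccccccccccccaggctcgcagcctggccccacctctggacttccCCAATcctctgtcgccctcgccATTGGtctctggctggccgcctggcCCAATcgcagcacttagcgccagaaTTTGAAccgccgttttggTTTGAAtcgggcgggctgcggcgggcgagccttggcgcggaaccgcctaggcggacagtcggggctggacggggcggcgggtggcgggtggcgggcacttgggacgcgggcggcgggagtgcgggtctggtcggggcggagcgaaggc
Cenpf, chr1:189688037-189688336, minus strand: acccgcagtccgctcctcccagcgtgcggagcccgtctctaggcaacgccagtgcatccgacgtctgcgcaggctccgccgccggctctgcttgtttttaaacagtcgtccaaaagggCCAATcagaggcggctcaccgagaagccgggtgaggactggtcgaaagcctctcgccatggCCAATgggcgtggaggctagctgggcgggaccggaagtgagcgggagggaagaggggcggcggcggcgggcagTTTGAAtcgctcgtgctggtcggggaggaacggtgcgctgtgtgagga

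All 4 windows held at least 1 TTTGAA and at least 2 CCAAT boxes, on either strand. The Cdk1 window held 2 TTTGAA and 3 CCAAT, and the Mki67 window the same numbers, 2 and 3. The Cdc20 window held 1 TTTGAA and 2 CCAAT, and so did that of Cenpf, with 1 and 2. Across the 28 matched genes, 22 (78.6%) had either CHR spelling, against 21.7% of the 27025 genes in the promoter table. The spelling TTTGAA was in 21 (75%), against 20.2% of all, and TTCGAA in 3 (10.7%), Bub1, Bub1b and Top2a, against 1.80%. A CCAAT box was in 21 (75%), against 41.1%, and 2 or more were in 15 (53.6%), against 13.3%. Both kinds of motif together were in 19 (67.9%), against 8.61% of all genes. Top2a, with 6, and Ube2c, with 6, had the most CCAAT boxes, while Birc5, Mad2l1, Nuf2 and Nusap1 had none of the motifs in this window. A match is a description of letters and does not show that a factor binds there.

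All 35 genes were detected in every library, with 218 recovered reads at the lowest (Cdc25c) and 20493 at the highest (Mki67). On the length-adjusted FPKM scale, Mki67 stood highest, with a mean of 88.2 over the 10 libraries and a range of 73.3 to 102. Top2a followed with 84.2 (80.5 to 89.9) and Tpx2 with 79.8 (77.9 to 81.6), and these 3 ranges overlapped. The lowest were the phosphatase gene Cdc25c, with 4.88 FPKM, and Cenpf, with 8.82, and their ranges (4.45 to 5.39 and 6.90 to 9.96) did not overlap. By their means over all 12 libraries, the members ranked among all kept genes between percentile 36.5 for Cdc25c and 94.7 for Mki67. Across the 10 libraries the coefficient of variation ran between 1.44% for Tpx2 and 11.5% for Cdc20. Together the 35 genes took 0.369, 0.389 and 0.402% of a library's FPKM in HBSS, 0.387, 0.391 and 0.393% at 20 µM, 0.380, 0.368 and 0.368% at 100 µM and 0.258, 0.276 and 0.375% in cell media. The HBSS shares overlapped those of both HOCl groups, the 100 µM shares all lay below those of 20 µM, and cell media replicates 1 and 2 were the lowest of the 12. The summed FPKM of the 35 genes averaged 1222.6 at 100 µM, 1222.5 at 20 µM, 1214.7 in HBSS and 1078 in cell media. Total FPKM of a library was 318364 to 336382 at 100 µM and 307153 to 320141 at 20 µM. These shares and sums were not tested.

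**Figure D1:**
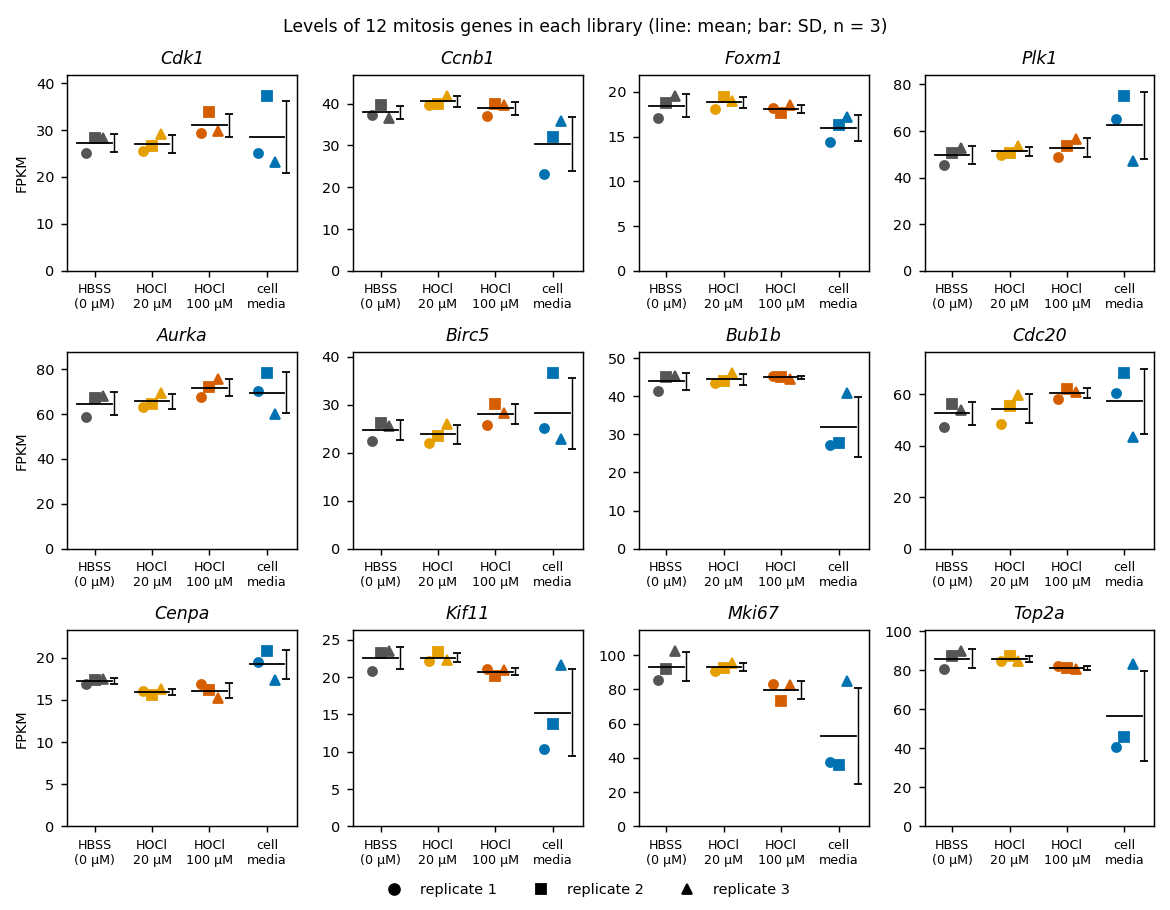
FPKM (vertical axes, starting at 0) of the 12 anchor genes in each library of HBSS (0 µM), HOCl at 20 and 100 µM and cell media; points are libraries, lines are group means and bars are SD (n = 3). Mki67 averaged 79.6 FPKM at 100 µM and 93.2 in HBSS, Cdk1 31.0 and 27.2, and in Mki67, Top2a, Bub1b and Kif11 cell media replicates 1 and 2 lie below every other library.

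The comparison of HOCl at 100 µM with HBSS asks what the higher dose left behind in these transcripts a day after exposure. No member passed the test: limma on log2(FPKM + 1) with all 12 libraries called 0 of 35 at a Benjamini-Hochberg adjusted p under 0.05, where it called 0% of the 12026 genes. With the 10 libraries limma called 0 of 35, against 0.241% of all genes (29 genes). The unadjusted limma p was under 0.05 for 0 members with all 12 libraries and for 8 with 10 (3 higher, 5 lower), against 933 and 3878 of the 12026 genes, and limma-voom on recovered reads called 0 members. Values were higher at 100 µM for 17 members and lower for 18, with a median log2 difference of -0.0038, beside -0.0063 over all genes. In 4 members every library at 100 µM lay above every HBSS library, where this held for 16.5% of all genes, and in 5 every one lay below, where it held for 17.6%. These shares of the members were below those of all genes in both directions. The differences ran between -0.28 (Cenpf) and 0.20 (Cdc20) on the log2 scale.

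**Figure D2:**
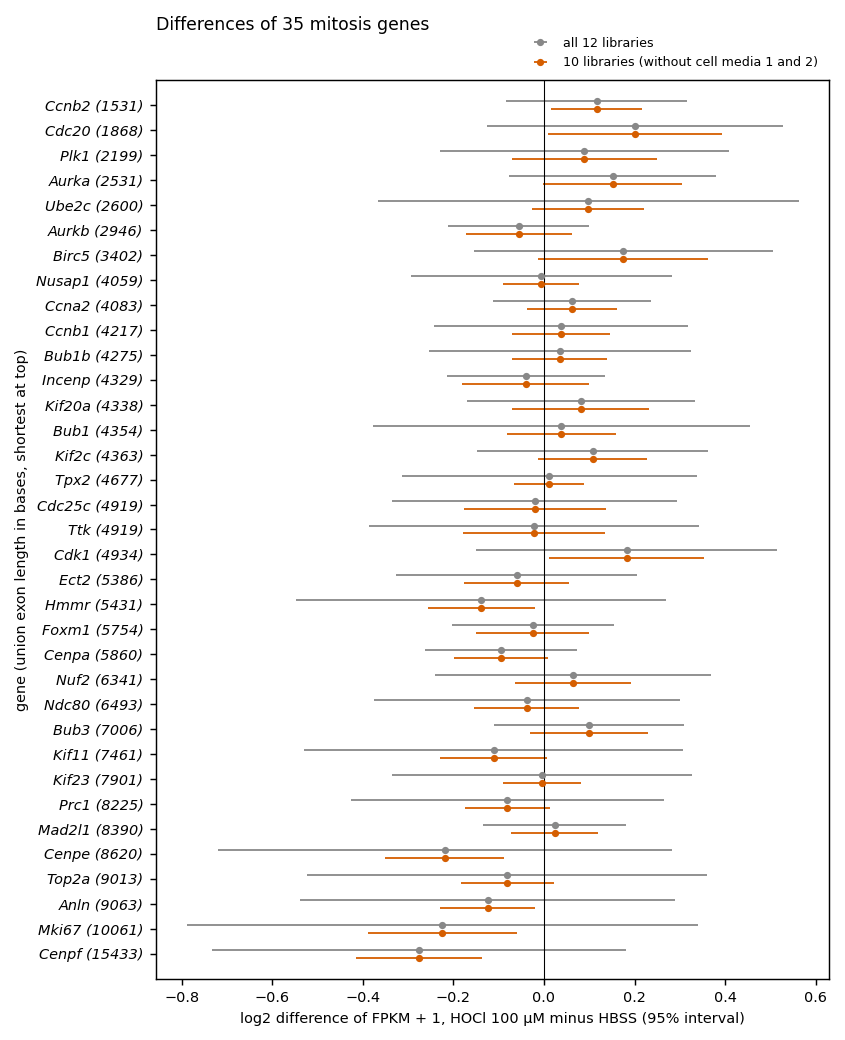
Log2 difference of FPKM + 1 for HOCl 100 µM minus HBSS (horizontal axis) of the 35 genes, ordered by exon length with the shortest at the top; points are estimates and lines 95% intervals from limma with all 12 libraries (grey) or 10 (orange). Short Cdc20 (0.20) and Ccnb2 (0.12) lie to the right of 0, long Cenpf (-0.28) and Mki67 (-0.22) to the left, and every grey interval crosses 0.

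Among the 6 genes of the cyclin and Cdk1 module, 4 had higher and 2 lower means at 100 µM than in HBSS, with a median of 0.050. Cdk1, the kinase that drives entry into mitosis, had 25.1, 28.4 and 28.2 FPKM in HBSS, 25.6, 26.5 and 29.2 at 20 µM, 29.4, 33.8 and 29.8 at 100 µM and 25.2, 37.4 and 23.1 in cell media. Its 3 libraries at 100 µM were the highest of the 9 HBSS and HOCl libraries, and in cell media replicate 2 was higher still. Cdk1 averaged 31.0 ± 2.4 at 100 µM and 27.2 ± 1.9 in HBSS (SD, n = 3 each), a log2 difference of 0.18 ± 0.15 (SE; limma, adjusted p = 0.692; with 10 libraries 95% interval 0.012 to 0.35, adjusted p = 0.137). Ccnb2, a B-type cyclin that activates Cdk1, had 65.0, 65.6 and 60.2 FPKM in HBSS, 63.0, 64.8 and 65.1 at 20 µM, 70.1, 67.0 and 69.9 at 100 µM and 88.6, 79.3 and 68.98 in cell media. Here too the 100 µM libraries lay above those of HBSS, by 0.12 ± 0.091 (limma, adjusted p = 0.686, or 0.117 with 10 libraries). With each library's trend on exon length removed, the difference of Ccnb2 was 0.016. Ccnb1, the other B-type cyclin of the list, had 37.4, 39.7 and 36.6 FPKM in HBSS, 39.7, 39.9 and 41.9 at 20 µM, 37.1, 39.9 and 39.7 at 100 µM and 23.2, 31.9 and 35.8 in cell media. The HBSS and 100 µM values of Ccnb1 overlapped, with a difference of 0.037 ± 0.13 that turned to -0.0310 with quantile normalization. Foxm1, a transcription factor that activates G2 and mitosis genes, had 17.02, 18.8 and 19.6 FPKM in HBSS, 18.1, 19.4 and 18.9 at 20 µM, 18.2, 17.6 and 18.5 at 100 µM and 14.4, 16.3 and 17.2 in cell media. It differed by -0.025 ± 0.081, or 0.0315 with each library's trend on exon length removed, and its 100 µM and HBSS values overlapped. Ccna2, the cyclin that acts in S phase and G2, averaged 54.2 ± 2.8 FPKM in HBSS, 53.9 ± 0.63 at 20 µM, 56.5 ± 0.87 at 100 µM and 45.5 ± 4.3 in cell media. Cdc25c, the phosphatase that removes inhibitory phosphates of Cdk1, averaged 5.04 ± 0.19 FPKM in HBSS, 4.75 ± 0.31 at 20 µM, 4.97 ± 0.48 at 100 µM and 3.30 ± 1.0 in cell media, and both genes overlapped between 100 µM and HBSS.

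Of the 5 genes of mitotic kinases and the chromosomal passenger complex, 3 had higher and 2 lower means at 100 µM than in HBSS, with a median of 0.089. Aurka, the Aurora kinase of centrosomes and spindle poles, had 58.9, 67.3 and 67.9 FPKM in HBSS, 63.1, 64.7 and 69.4 at 20 µM, 67.8, 72.1 and 75.7 at 100 µM and 70.3, 78.2 and 60.2 in cell media. Only its lowest library at 100 µM fell within the HBSS range, and Aurka had the smallest p of the 35 genes, with 0.15 ± 0.10 (limma, adjusted p = 0.675; 0.159 with 10 libraries). Birc5, survivin, the subunit that brings the passenger complex to centromeres, had 22.4, 26.2 and 25.6 FPKM in HBSS, 22.1, 23.5 and 26.0 at 20 µM, 25.8, 30.1 and 28.3 at 100 µM and 25.1, 36.5 and 22.9 in cell media. Its 100 µM and HBSS values overlapped through a single library, at 0.18 ± 0.15 (limma, adjusted p = 0.698, or 0.177 with 10 libraries). Plk1, the polo-like kinase of mitotic entry and spindle assembly, had 45.5, 50.7 and 52.8 FPKM in HBSS, 49.6, 50.4 and 53.6 at 20 µM, 48.7, 53.4 and 56.5 at 100 µM and 65.1, 75.2 and 47.1 in cell media. Its 100 µM and HBSS values overlapped, with 0.089 ± 0.14. Aurkb, the kinase of the passenger complex, averaged 38.2 ± 2.5 FPKM in HBSS, 37.7 ± 0.97 at 20 µM, 36.6 ± 0.96 at 100 µM and 38.6 ± 1.6 in cell media. Incenp, the scaffold of that complex, had 50.1, 52.8 and 57.0 FPKM in HBSS, 49.2, 49.9 and 55.3 at 20 µM, 50.002, 51.9 and 53.3 at 100 µM and 43.8, 45.5 and 48.5 in cell media. Neither gene separated the HBSS and 100 µM groups.

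In the spindle checkpoint and anaphase-promoting complex, 6 of 7 genes had higher means at 100 µM and 1 a lower mean, with a median of 0.038. Cdc20, the activator of the anaphase-promoting complex that the checkpoint inhibits, had 47.5, 56.3 and 53.9 FPKM in HBSS, 48.4, 55.4 and 59.7 at 20 µM, 58.4, 62.1 and 60.8 at 100 µM and 60.4, 68.2 and 43.3 in cell media. All 3 libraries at 100 µM were above the HBSS libraries, while those at 20 µM spanned both. Cdc20 averaged 60.4 ± 1.9 at 100 µM and 52.6 ± 4.6 in HBSS (SD, n = 3 each), the largest positive difference of the 35 genes, 0.20 ± 0.15 (limma, adjusted p = 0.686; with 10 libraries 95% interval 0.0097 to 0.39, adjusted p = 0.142). Bub1b, the checkpoint protein BubR1 that binds Cdc20, had 41.3, 45.2 and 45.3 FPKM in HBSS, 43.4, 43.9 and 46.0 at 20 µM, 45.4, 45.01 and 44.5 at 100 µM and 27.1, 27.7 and 40.9 in cell media. Its 100 µM and HBSS libraries overlapped, with 0.034 ± 0.13 that turned to -0.0413 with quantile normalization, and cell media replicates 1 and 2 were far below them. Bub1, the checkpoint kinase of kinetochores, averaged 47.2 ± 3.1 FPKM in HBSS, 47.4 ± 1.7 at 20 µM, 48.4 ± 0.98 at 100 µM and 31.8 ± 11 in cell media. Bub3, which recruits Bub1 and BubR1 to kinetochores, averaged 24.8 ± 1.6 FPKM in HBSS, 25.3 ± 0.98 at 20 µM, 26.7 ± 1.1 at 100 µM and 26.0 ± 3.5 in cell media. Checkpoint genes other than Bub3 showed still smaller differences. Mad2l1, the checkpoint protein Mad2, averaged 20.0 ± 0.76 FPKM in HBSS, 19.5 ± 0.16 at 20 µM, 20.4 ± 0.68 at 100 µM and 19.1 ± 1.5 in cell media. Ttk, the kinase Mps1 that starts checkpoint signalling, averaged 13.7 ± 1.0 FPKM in HBSS, 13.6 ± 1.0 at 20 µM, 13.5 ± 0.53 at 100 µM and 8.91 ± 3.0 in cell media. Ube2c, the ubiquitin-conjugating enzyme of the anaphase-promoting complex, averaged 55.3 ± 1.8 FPKM in HBSS, 56.7 ± 3.6 at 20 µM, 59.3 ± 2.4 at 100 µM and 88.0 ± 30.4 in cell media, and in all 5 of these genes 100 µM and HBSS overlapped.

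Kinetochore and centromere genes leaned the other way, with 4 of 5 means lower at 100 µM and 1 higher, at a median of -0.095. All 5 have more than 4919 exon bases, and of the 4395 kept genes above that length 3281 were lower, with a median of -0.092. With the trend on exon length removed, Cenpe stood at -0.11, Cenpf at -0.089, Cenpa at -0.036, Ndc80 at 0.034 and Nuf2 at 0.13. Cenpf, a very large coiled-coil protein of the kinetochore, had 9.30, 8.93 and 9.96 FPKM in HBSS, 9.13, 9.33 and 9.34 at 20 µM, 7.75, 6.90 and 8.14 at 100 µM and 4.47, 4.25 and 9.43 in cell media. Every library at 100 µM was below every HBSS and 20 µM library. Cenpf averaged 7.59 ± 0.63 at 100 µM and 9.40 ± 0.52 in HBSS (SD, n = 3 each), a log2 difference of -0.28 ± 0.21 (limma, adjusted p = 0.686; with 10 libraries 95% interval -0.42 to -0.14, adjusted p = 0.0589). Cenpe, the kinesin motor that carries chromosomes to the metaphase plate, had 24.8, 24.0 and 26.0 FPKM in HBSS, 25.7, 25.4 and 25.6 at 20 µM, 21.7, 19.5 and 22.8 at 100 µM and 12.4, 11.6 and 26.2 in cell media. The same separation was seen, with -0.22 ± 0.23 (limma, adjusted p = 0.736; 0.0714 with 10 libraries). Cenpa, the histone H3 variant that marks centromeres, had 16.9, 17.3 and 17.5 FPKM in HBSS, 16.02, 15.5 and 16.3 at 20 µM, 16.9, 16.2 and 15.2 at 100 µM and 19.5, 20.8 and 17.4 in cell media. Its 100 µM libraries overlapped those of HBSS, with -0.095 ± 0.077. Nuf2 averaged 12.6 ± 0.92 FPKM in HBSS, 12.6 ± 0.26 at 20 µM, 13.2 ± 0.54 at 100 µM and 9.59 ± 2.6 in cell media. Its partner Ndc80, with which it binds microtubules at the kinetochore, averaged 13.1 ± 0.51 FPKM in HBSS, 13.1 ± 0.68 at 20 µM, 12.7 ± 0.45 at 100 µM and 10.5 ± 3.4 in cell media, and in both genes 100 µM and HBSS overlapped.

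Of 8 kinesin and spindle genes, 3 had higher and 5 lower means at 100 µM, with a median of -0.0050. Kif11, the motor Eg5 that pushes spindle poles apart, had 20.8, 23.2 and 23.5 FPKM in HBSS, 22.2, 23.3 and 22.3 at 20 µM, 21.1, 20.2 and 21.0 at 100 µM and 10.3, 13.7 and 21.7 in cell media. Among the 100 µM libraries 2 lay within the HBSS range, and the difference was -0.11 ± 0.19 (limma, adjusted p = 0.815, or 0.174 with 10 libraries). Hmmr, a spindle assembly factor that is also a hyaluronan receptor, had 36.4, 36.5 and 35.2 FPKM in HBSS, 35.7, 36.6 and 36.8 at 20 µM, 35.2, 30.5 and 32.4 at 100 µM and 18.7, 19.2 and 35.1 in cell media. Its 100 µM libraries all lay below those of HBSS and of 20 µM, although HOCl 100 µM replicate 1 and HBSS replicate 3 were alike to 3 digits, with -0.14 ± 0.19 (limma, adjusted p = 0.775; 0.116 with 10 libraries). Kif2c, a kinesin that takes microtubule ends apart, had 15.1, 16.9 and 16.5 FPKM in HBSS, 15.9, 16.5 and 17.4 at 20 µM, 17.01, 17.9 and 17.5 at 100 µM and 11.3, 10.96 and 15.8 in cell media. Its 100 µM libraries lay just above those of HBSS, with 0.11 ± 0.12. The remaining 5 genes overlapped between HBSS and 100 µM. Kif20a, a kinesin of the central spindle, had 17.05, 19.0 and 19.7 FPKM in HBSS, 18.4, 19.0 and 21.1 at 20 µM, 19.1, 20.1 and 20.0 at 100 µM and 13.6, 11.7 and 16.8 in cell media. Kif23, the kinesin of the centralspindlin complex, averaged 14.3 ± 0.35 FPKM in HBSS, 14.5 ± 0.29 at 20 µM, 14.3 ± 0.29 at 100 µM and 10.3 ± 3.2 in cell media. Prc1, which bundles microtubules of the spindle midzone, averaged 17.2 ± 0.51 FPKM in HBSS, 16.6 ± 0.34 at 20 µM, 16.2 ± 0.55 at 100 µM and 13.3 ± 4.3 in cell media. Nusap1, a microtubule-binding protein, averaged 15.6 ± 0.48 FPKM in HBSS, 15.4 ± 0.060 at 20 µM, 15.5 ± 0.15 at 100 µM and 12.9 ± 3.4 in cell media. Tpx2, which activates Aurora A on the spindle, averaged 79.2 ± 1.2 FPKM in HBSS, 80.3 ± 0.76 at 20 µM, 79.9 ± 1.7 at 100 µM and 61.7 ± 17 in cell media and had the lowest coefficient of variation of the 35 genes.

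Both cytokinesis genes and both chromosome proteins had lower means at 100 µM than in HBSS. In 2 of the 4 every 100 µM library lay below HBSS, beside 17.6% of all genes. All 4 have more than 4919 exon bases, and of the 4395 kept genes above that length 1369 lay wholly below HBSS. Mki67, the Ki-67 protein that coats mitotic chromosomes and marks cycling cells, had 85.5, 91.9 and 102 FPKM in HBSS, 90.8, 92.2 and 95.4 at 20 µM, 83.2, 73.3 and 82.3 at 100 µM and 37.6, 35.6 and 85.0 in cell media. All 100 µM libraries lay below all libraries of HBSS and 20 µM. Mki67 averaged 79.6 ± 5.5 at 100 µM and 93.2 ± 8.5 in HBSS (SD, n = 3 each), a log2 difference of -0.22 ± 0.26 (limma, adjusted p = 0.747; with 10 libraries 95% interval -0.39 to -0.060, adjusted p = 0.0919). Top2a, the topoisomerase that untangles sister chromatids, had 80.8, 87.6 and 89.9 FPKM in HBSS, 85.0, 87.6 and 84.6 at 20 µM, 82.2, 81.1 and 80.5 at 100 µM and 40.8, 46.1 and 83.1 in cell media. Its 100 µM libraries were below those of 20 µM but overlapped HBSS through HBSS replicate 1. The difference from HBSS was -0.081 ± 0.20 (limma, adjusted p = 0.870, or 0.238 with 10 libraries). It was 0.0335 with the trend on exon length removed. Anln, the anillin scaffold of the contractile ring, had 24.0, 24.9 and 25.9 FPKM in HBSS, 25.2, 26.3 and 24.4 at 20 µM, 23.6, 22.7 and 22.1 at 100 µM and 13.6, 13.4 and 25.6 in cell media. No 100 µM library reached the HBSS range, and the difference was -0.12 ± 0.19 (limma, adjusted p = 0.797; 0.113 with 10 libraries). Ect2, the exchange factor that activates RhoA at the cleavage furrow, averaged 19.0 ± 1.3 FPKM in HBSS, 19.4 ± 0.14 at 20 µM, 18.2 ± 0.47 at 100 µM and 14.3 ± 3.2 in cell media, with overlap between 100 µM and HBSS. The sum of the 14 macrophage markers was 5265 to 5904 FPKM at 100 µM and 4736 to 5126 in HBSS. Much of this sum was Lyz2, with means of 2716 and 2155 FPKM. Of the 12 kept markers, 8 were higher and 4 lower at 100 µM. Their median log2 difference was 0.049, and limma with all 12 libraries called 0 of them. Markers of other cell types summed to 14.4 to 17.1 at 100 µM and 10.6 to 13.4 in HBSS, nearly all of it S100a8; their part in the results was not tested.

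The difference tended to fall with union exon length, which counts all annotated exon bases of a gene and not those of a single transcript. Across the 35 genes, log2 difference (100 µM minus HBSS) and log exon length had a Pearson r of -0.73 and a Spearman rho of -0.69; the points share the same 6 libraries and serve as a description. Over all 11895 kept genes with a length the same relation gave -0.26 and -0.41, so it was not particular to the mitosis genes. Of the 17 members with 4934 to 15433 exon bases, 4 were higher and 13 lower at 100 µM, with a median of -0.081. Of the 18 members with 1531 to 4919 bases, 13 were higher and 5 lower, with a median of 0.050. All genes split at the same length had medians of -0.092 (4395 longer genes) and 0.055 (7500 shorter genes). Cenpf (15433 bases) and Mki67 (10061) are the longest members, and Ccnb2 (1531) and Cdc20 (1868) the shortest.

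With each library's loess trend on exon length taken out, the r of the members was -0.25 and the rho -0.26. The median of the longer members was then 0.021 and that of the shorter 0.049. Cenpf stood at -0.089 in place of -0.28, Mki67 at -0.094 in place of -0.22, and Cenpe at -0.11 in place of -0.22. Cdk1 stood at 0.22, against 0.18 before, and Cdc20 at 0.12, against 0.20. Within libraries, the mean log2 level of the longer members minus that of the shorter was -0.54, -0.57 and -0.54 in HBSS, -0.52, -0.55 and -0.61 at 20 µM, -0.62, -0.72 and -0.67 at 100 µM and -0.90, -0.95 and -0.49 in cell media. The 100 µM libraries were below those of HBSS and 20 µM, and cell media replicates 1 and 2 lower still, in the direction of 100 µM. With the trend removed the values were -0.64, -0.61 and -0.62 in HBSS, -0.63, -0.62 and -0.65 at 20 µM, -0.66, -0.67 and -0.61 at 100 µM and -0.72, -0.70 and -0.60 in cell media, and the 3 HBSS and HOCl groups overlapped. A pair picked after its values were seen shows the size in FPKM: the ratio of Mki67 to Cdk1 was 3.41, 3.24 and 3.62 in HBSS, 3.55, 3.48 and 3.26 at 20 µM, 2.83, 2.16 and 2.76 at 100 µM and 1.49, 0.953 and 3.68 in cell media.

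**Figure D3:**
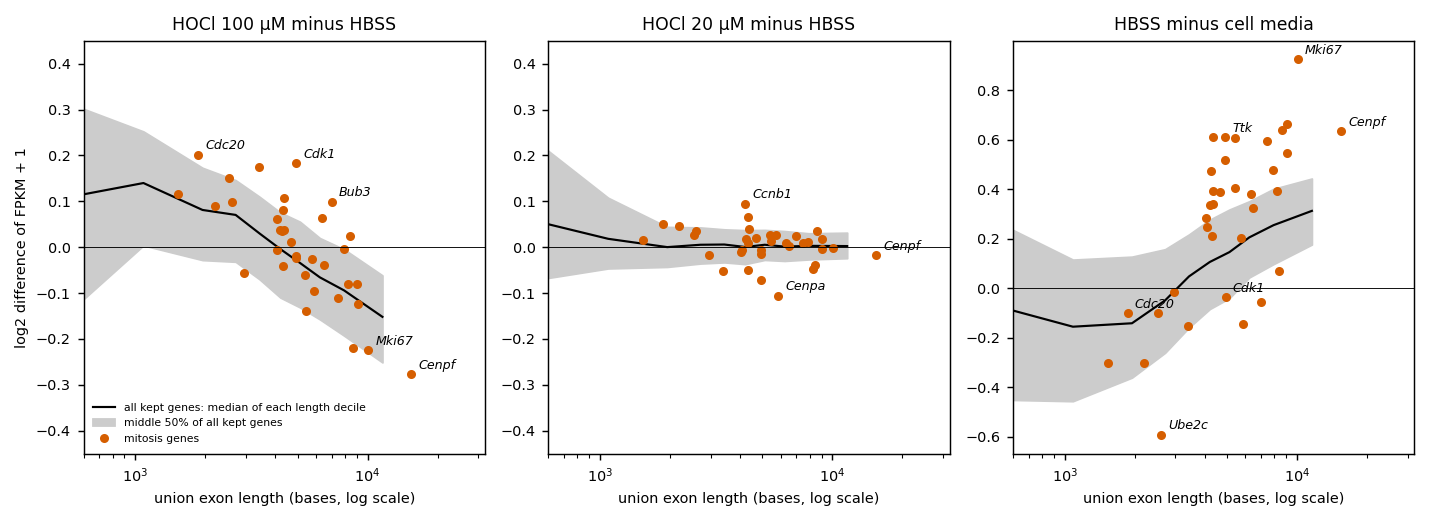
Log2 difference of FPKM + 1 (vertical axes) against union exon length in bases (horizontal log axes) for the 35 genes (points), with the median of each length decile of all kept genes (line) and the middle 50% (band), in 3 comparisons. At 100 µM minus HBSS the points fall with length (r = -0.73) along with the line, at 20 µM minus HBSS they stay within -0.11 to 0.095, and for HBSS minus cell media they climb with length (r = 0.70).

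**Figure D4:**
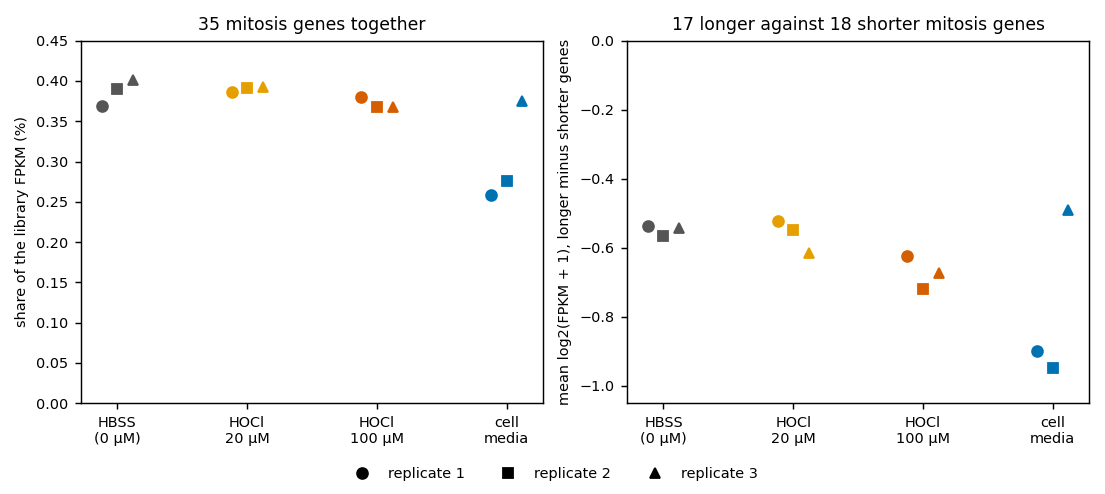
Share of each library's FPKM held by the 35 genes in percent (left) and mean log2(FPKM + 1) of the 17 longer minus the 18 shorter genes (right), with 1 point per library. The shares at 100 µM (0.380, 0.368 and 0.368%) overlap those of HBSS, the right-hand values at 100 µM (-0.62, -0.72 and -0.67) lie below those of HBSS, and cell media replicates 1 and 2 are lowest in both panels.

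At 20 µM the 35 genes stayed close to HBSS, in a comparison that shares its HBSS libraries with that of 100 µM. Limma called 0 of 35 members with all 12 libraries (background 0%) and 0 with 10 (0%), with an unadjusted p under 0.05 for 0 and 1 members, beside 130 and 371 of the 12026 genes. Means were higher at 20 µM for 21 and lower for 14, with a median of 0.0093 beside 0.0057 over all genes and a range of -0.11 to 0.095. Ccnb1 was the 1 member whose 20 µM libraries all lay above HBSS (4.21% of all genes), and Cenpa the 1 whose libraries all lay below (3.48%). Cenpa averaged 15.9 ± 0.38 at 20 µM and 17.2 ± 0.31 in HBSS, a log2 difference of -0.11 ± 0.077 (limma, adjusted p = 1.00). Ccnb1 averaged 40.5 ± 1.2 at 20 µM and 37.9 ± 1.6 in HBSS, with 0.095 ± 0.13. Incenp (-0.050 ± 0.079) and Kif20a (0.067 ± 0.11) had the next smallest p, with overlapping groups. The members showed little of the length relation (r = -0.25, rho = -0.25).

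Set against 20 µM in place of HBSS, the 100 µM values gave a like picture, in a comparison that shares the 100 µM libraries with the first. Limma called 0 of 35 members with all 12 libraries (background 0%) and 0 with 10 (0%), with an unadjusted p under 0.05 for 0 and 9 of 35 members, beside 481 and 3156 of the 12026 genes. Means were higher at 100 µM for 19 and lower for 16, with a median of 0.0089 beside -0.017 over all genes. The 100 µM libraries lay wholly above those of 20 µM in 4 members, Cdk1, Ccnb2, Mad2l1 and Ccna2 (12.7% of all genes), and wholly below in 8, Cenpf, Cenpe, Mki67, Hmmr, Anln, Ect2, Kif11 and Top2a (15.6%). In this comparison the share of members below, 8 of 35, exceeded its background and the share above did not. All 8 are among the 17 longer members. Of the 4395 kept genes with more than 4919 exon bases, 1295 lay wholly below 20 µM. Birc5 had the smallest p, at 28.1 ± 2.1 at 100 µM and 23.8 ± 2.0 at 20 µM, with 0.23 ± 0.15 (limma, adjusted p = 0.825; 0.147 with 10 libraries). Cdk1 (0.19 ± 0.15), Cenpf (-0.26 ± 0.21) and Aurka (0.13 ± 0.10) followed. The r with exon length was -0.67 and the rho -0.62, against -0.19 and -0.40 over all genes.

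The comparison of HBSS with cell media asks what 1 h in salt solution alone left behind, and here 2 of the 3 cell media libraries decided the values. Limma with all 12 libraries called 0 of 35 members (background 0.0166%, 2 genes), although 24 had an unadjusted p under 0.05, beside 4806 of the 12026 genes. Means were higher in HBSS for 25 members and lower for 10, with a median of 0.34 beside 0.10 over all genes. Every HBSS library lay above every cell media library in 10 members, where this held for 12.7% of all genes, and below in 1 (8.91%). Mki67 averaged 93.2 ± 8.5 in HBSS and 52.8 ± 28 in cell media (SD, n = 3 each), with 0.92 ± 0.26 on the log2 scale (limma, adjusted p = 0.0711). Ttk, the checkpoint kinase Mps1, had 12.6, 14.5 and 14.1 FPKM in HBSS, 12.5, 14.6 and 13.7 at 20 µM, 14.0, 13.5 and 12.9 at 100 µM and 6.55, 7.94 and 12.2 in cell media. It had the smallest p, with 0.61 ± 0.17 (limma, adjusted p = 0.0711), and cell media replicate 3 lay within 1 FPKM of the HBSS range. Cdc25c had 5.14, 5.16 and 4.82 FPKM in HBSS, 4.46, 4.72 and 5.07 at 20 µM, 5.07, 5.39 and 4.45 at 100 µM and 2.44, 2.99 and 4.47 in cell media. It differed by 0.52 ± 0.14 and Bub1b by 0.47 ± 0.13. Ccnb2 was the member with every HBSS library below cell media, at 63.6 ± 3.0 in HBSS and 79.0 ± 9.8 in cell media (-0.30 ± 0.091).

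The 2 libraries did not lower these genes alike. The mean of cell media replicates 1 and 2 was 0.415 times that of the other 10 libraries for Mki67 and 0.516 times for Top2a, but 1.38 times for Plk1, 1.27 times for Ccnb2 and 1.86 times for Ube2c. Ube2c had 53.4, 55.6 and 57.0 FPKM in HBSS, 55.1, 54.3 and 60.8 at 20 µM, 56.8, 59.6 and 61.6 at 100 µM and 108, 103 and 53.0 in cell media. Replicates 1 and 2 stood above all others here, while replicate 3 was close to HBSS. For HBSS minus cell media the members' log2 differences rose with exon length, with an r of 0.70 and a rho of 0.65 (all genes 0.27 and 0.40). With the trend removed the members' values were 0.45 and 0.40. Members with every HBSS library above cell media were 8 of the 18 shorter and 2 of the 17 longer. Among all kept genes they were 761 of 7500 shorter and 754 of 4395 longer. Without these 2 libraries a single cell media library was left, and with its spread assumed to be that of the other groups limma called 0 members (0% of all genes), with an unadjusted p under 0.05 for 0 of 35 (beside 823 of the 12026 genes) and a median of 0.060. Median-of-ratios scaling moved the all-gene median to 0.0069 and that of the members to 0.23. Without cell media replicate 3, which left the 2 libraries that stand apart, limma called 30 of 35 members, 25 higher and 5 lower in HBSS, along with 7852 of the 12026 genes.

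How closely single members followed the others depended on the same 2 libraries. Over all 12 libraries, the log2 level of Bub1b followed the mean of the other 34 genes most closely (r = 0.988), then Ttk (0.987) and Top2a (0.980), while Ube2c (-0.935), Ccnb2 (-0.915), Cenpa (-0.829) and Plk1 (-0.770) ran opposite. Over the 10 libraries Bub1b again came first (0.883), followed by Foxm1 (0.862) and Kif20a (0.852), with Nusap1 (-0.751), Ndc80 (-0.620) and Ccnb2 (-0.332) at the other end. Members moved both ways between the 2 sets of libraries. Plk1 stood at 0.737 over the 10, and Aurkb at 0.800, against -0.349 over all 12. Hmmr stood at -0.071 over the 10, against 0.936 over all 12. These r are descriptions over libraries that share a scale (FPKM, which is relative to depth), with no test.

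Other genes of the division machinery were read from lists, and limma with all 12 libraries called none of their genes at 100 µM against HBSS. An unadjusted limma p under 0.05 was found for 2 of 43 DNA replication genes, 2 of 22 genes of mitotic entry, 1 of 19 transcription regulators and 6 of 15 growth arrest genes. It was found for none of the other 4 lists, and for 933 of all 12026 genes. With 10 libraries these 4 lists had 11, 6, 6 and 8, beside 3878 of all genes. The other 4 then had 12 of 39 kinetochore, 10 of 35 spindle, 7 of 21 condensin and cohesin and 6 of 18 anaphase-promoting complex genes. The counts that follow are of means. Over all 12026 genes 5836 were higher and 6190 lower, with a median of -0.0063, and 16.5% lay wholly above and 17.6% wholly below HBSS. Exon length was not taken out for these lists. Of 43 DNA replication genes, 37 were higher and 6 lower, with a median of 0.12 and 12 wholly above HBSS. Pcna, the sliding clamp, averaged 265 ± 14 FPKM at 100 µM and 216 ± 19.8 in HBSS (0.29 ± 0.11, limma, adjusted p = 0.625, or 0.0734 with 10 libraries). Gins4, of the replicative helicase, averaged 39.6 ± 2.6 FPKM at 100 µM and 34.2 ± 1.9 in HBSS (0.20). The further kinetochore, centromere and checkpoint genes split 22 to 17 of 39, with a median of 0.0094, and the further spindle, centrosome and motor genes 17 to 18 of 35, with -0.013. Cenps, a kinetochore protein, stood at 0.28, Nsl1, of the Mis12 complex, at -0.19, the cytokinesis kinase Cit at -0.26 and the augmin subunit Haus8 at 0.26. Condensin and cohesin genes were higher in 5 and lower in 16 of 21 (median -0.078), 8 of them wholly below HBSS, beside 17.6% of all genes. Of the 4395 kept genes with more than 4919 exon bases, 1369 lay wholly below HBSS. The part of exon length in the values of this list was not tested. The cohesin loader Nipbl averaged 15.8 ± 1.9 FPKM at 100 µM and 21.8 ± 2.1 in HBSS (-0.44 ± 0.27, limma, adjusted p = 0.669, or 0.0611 with 10 libraries). The cohesin subunit Stag2 stood at -0.23. Anaphase-promoting complex genes were higher in 13 and lower in 5 of 18 (median 0.083), with Anapc16 at 0.16 and Anapc7 at 0.10.

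Genes that control entry into mitosis were higher in 10 and lower in 12 of 22 kept (median -0.0084). Wee1, the kinase that inhibits Cdk1, averaged 10.4 ± 0.12 FPKM at 100 µM and 12.4 ± 1.4 in HBSS (-0.23 ± 0.087, limma, adjusted p = 0.625, or 0.107 with 10 libraries). The kinase Melk stood at 0.21. Transcription regulators of the mitotic genes were higher in 8 and lower in 11 of 19 kept (median -0.045). Lin52, a subunit shared by the DREAM and B-Myb complexes, averaged 3.64 ± 0.27 FPKM at 100 µM and 4.76 ± 0.13 in HBSS (-0.32 ± 0.11; limma, adjusted p = 0.625; 0.0514 with 10 libraries). Nfya, a subunit of the CCAAT-binding factor NF-Y, averaged 17.8 ± 1.3 FPKM at 100 µM and 21.9 ± 0.59 in HBSS (-0.28). Growth arrest genes were higher in 8 and lower in 7 of 15 kept (median 0.031). Gadd45g, a stress-induced growth arrest gene, averaged 5.06 ± 0.56 FPKM at 100 µM and 2.46 ± 0.33 in HBSS (0.81 ± 0.11; limma, adjusted p = 0.154) and was the 1 gene of these lists called with 10 libraries (limma, adjusted p = 0.0463). Cdkn1b, the cyclin-dependent kinase inhibitor p27, averaged 10.1 ± 1.2 FPKM at 100 µM and 14.3 ± 0.97 in HBSS (-0.47 ± 0.12; limma, adjusted p = 0.572; 0.0514 with 10 libraries).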

How the data were processed

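Messenger RNA of 12 J774A.1 samples was sequenced, 3 in each of 4 groups given by the labels. The authors deposited FPKM values per Ensembl gene ID; per the submitters' processing notes HISAT2, featureCounts and the GRCm39 build were used, with versions and strand setting not given in the sources used here. Libraries were not assigned to the 2 instruments listed in the labels, so no batch could be tested.

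GENCODE M21 (GRCm38) gave symbols for 28302 of 28977 IDs and union exon lengths; since its build differs from the one in the notes, it gave no coordinates. Values below 1 FPKM times exon length lay on whole multiples of 1 step per library (98.13% to 98.4% of them within 0.01), from which reads were recovered for depth and for limma-voom. Precision is limited by the 3 libraries per group.

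Genes with at least 1 FPKM in at least 3 libraries were kept, 12026 in all. Log2(FPKM + 1) was fitted with limma 3.58.1 (R 4.3.3), with 1 mean per group, 12 libraries in a single model and a mean-variance trend; tests were two-sided, with Benjamini-Hochberg adjustment over all kept genes. The pseudocount understates fold changes of low genes. Differences are the first-named group minus the second. A parallel fit left out cell media replicates 1 and 2. The procedure was tested on simulated data. With 3 libraries against 3, a permutation of a single value cannot give a p under 0.1, so none was run.

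Members and gene lists were chosen with earlier results of these data known. By rule, all 35 members were named with group means, 12 anchor genes and the 4 members with the smallest p in each comparison with every library, and from each other list the 2 kept genes with the smallest p at 100 µM against HBSS. Alternatives covered the pseudocount, filter, scaling, libraries in the fit, replicate block, trend and limma-voom; removal of each library's loess trend on exon length (span 0.5), for the 11895 genes with a length, was also run on 10 libraries, a choice made after seeing the data.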

Additional observations from a re-analysis of the deposited data

How the results depend on the processing

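Of 519 alternative values for 26 single-gene results, 500 kept their direction and their side of the threshold, 11 came to pass it and 8 changed sign. For HOCl 100 µM minus HBSS, quantile normalization gave Bub1b -0.0413 and Ccnb1 -0.0310, and removal of the exon length trend gave Foxm1 0.0315 and Top2a 0.0335, with 12 as with 10 libraries. Leaving out 1 library at a time put Bub1b between -0.0082 (without HBSS replicate 1) and 0.0566 and Foxm1 between -0.0791 and 0.0167 (without HBSS replicate 3). The cause was not tested. Members called stayed at 0 in the 3 comparisons of HOCl groups under every alternative except the replicate block on 10 libraries.

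The groups share replicate numbers, and the labels do not say whether a number marks a shared day or culture. Correlations of same-numbered deviations ran between -0.062 and 0.414 over the 4 comparisons, and at most 2 of 3 pairs passed 0.1. For HOCl 100 µM minus HBSS, 2 of 6 libraries correlated best with their own number, for 20 µM minus HBSS 3, for 100 µM minus 20 µM 5 and for HBSS minus cell media 2. With the replicate block on 10 libraries, limma called 6 members for HOCl 100 µM minus HBSS (Aurka, Cdc20 and Birc5 higher; Cenpf, Cenpe and Mki67 lower) among 2979 genes, and 4 for 100 µM minus 20 µM (Birc5 higher; Cenpf, Cenpe and Mki67 lower) among 2088 genes. For HBSS minus cell media the replicate block called 193 genes with 12 libraries and 0 with 10, where the median of the members was 0.0942.

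Genes called over the whole table, 0 for HOCl 100 µM minus HBSS, numbered 1 with no filter, 2 with only the 2 groups fitted, 29 with 10 libraries, 24 with the length trend also removed and 0 to 1 leaving out 1 library. For 20 µM minus HBSS, no filter gave 6; for 100 µM minus 20 µM, no filter gave 11 and the 2 groups alone 1. For HBSS minus cell media, with 2 called, the count was 1 with a pseudocount of 0.5 or a mean of at least 5 FPKM, 5 with no filter or no mean-variance trend, 4 with quantile normalization or limma-voom, 21 with the length trend removed, 0 with the 2 groups alone, with 10 libraries or with 10 libraries and the length trend removed, and 0 to 7852 leaving out 1 library; members called ran between 0 and 30, the highest without cell media replicate 3. There the median of the members, 0.3419, was 0.2313 with median-of-ratios scaling, 0.0605 with 10 libraries, 0.2024 with the length trend removed, 0.0800 with both and 0.2309 to 0.5198 leaving out 1 library.

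Groups of 3 libraries limit what can be seen, and a p that missed the threshold does not show that a gene was unchanged. Exon lengths came from an annotation of another build. A single time after exposure was sampled.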
